A study of Mus musculus with 6 samples.

Results

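The genes described here encode the coats, cargo receptors, membrane fusion proteins and tethers that carry proteins between the endoplasmic reticulum (ER) and the Golgi apparatus. They were taken from a list of 54 mouse genes of COPII and COPI vesicle traffic, and 51 of the 54 were measured by a probe set annotated to that gene alone, among 12393 genes measured in this way. Sec24a and Lman2l were named by no probe set, and the 6 probe sets of Tmed2 also name the gene Gm10698. Rab1 of the list was read as Rab1a, its current symbol. Where a gene had several probe sets, the one with the highest mean over all 6 arrays stood for it.

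Liver RNA was compared between 3 PiZ mice and 3 wild-type mice, all 6 weeks old and on a C57BL/6 background, with 1 array per mouse and biological replicates numbered 1 to 3 in each group. PiZ mice express, from a transgene, the human Z variant of alpha-1 antitrypsin, a secreted protease inhibitor that in this variant misfolds and is retained in the ER of hepatocytes. Their own antitrypsin genes remain, and the labels give neither the transgene's promoter nor the sex of the animals. All values are log2 intensities of Affymetrix probe sets, all differences are PiZ minus wild-type on that scale, and values of 3 arrays are listed in the order of replicates 1, 2 and 3. Differences come from limma with their standard errors (SE), with n = 3 per group unless arrays are said to be left out or used alone. A gene is said to have risen or fallen where its p, adjusted by Benjamini-Hochberg over the 12393 genes, was below 0.05. Where PiZ replicate 1 is used alone, the PiZ group is 1 array, and its p holds only the spread of the wild-type arrays.

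COPII vesicles leave the ER. The membrane protein Preb (Sec12 of yeast) loads the GTPase Sar1, which recruits the inner coat of Sec23 and Sec24, the subunit that binds cargo, and then the outer cage of Sec13 and Sec31. COPI vesicles return escaped ER proteins and receptors from the Golgi: Arf1 recruits coatomer, a complex of several subunits, and Arf GTPase-activating proteins let the coat fall off. SNARE proteins and tethers then join each vesicle to its target membrane, and in the liver this route carries the plasma proteins that hepatocytes secrete.

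The arrays of the PiZ group were not alike. The log2 difference between the 3′ and 5′ probe sets of Gapdh, which is large where RNA is shortened or copied incompletely, was 1.99, 4.39 and 4.01 in PiZ livers and 1.49, 2.06 and 1.65 in wild-type livers. That of beta-actin was 3.02, 4.89 and 4.66 in PiZ livers and 2.90, 3.34 and 2.95 in wild-type livers. PiZ replicate 1 was thus close to wild-type in this measure and PiZ replicates 2 and 3 were not, so the members are also given for PiZ replicate 1 alone and without it. The 9 measured hepatocyte markers lay at mean log2 intensities of 12.10 to 14.85, so the defining markers of liver were present. Summed on the linear scale they read 155700 to 183000 in PiZ livers and 191600 to 194300 in wild-type livers, and 0 of the 9 rose and 1 fell. Of 6 Kupffer cell markers 3 rose, with sums of 8203 to 9913 in PiZ livers and 6662 to 6895 in wild-type livers. These were Clec4f, Cd5l and Marco, while Adgre1 (-0.10), Vsig4 (-0.23) and Csf1r (0.29) did not pass. Of 6 neutrophil markers 3 rose as well, with sums of 501 to 695.5 in PiZ livers and 120.8 to 180.6 in wild-type livers. These were S100a8 (2.76), S100a9 (2.265) and Mmp8 (0.77), the last at a mean log2 intensity of only 3.58. Ngp (0.23), Camp (0.19) and Ltf (0.40) did not pass. Of all genes measured 11.3% rose. Of 4 secretory ER markers known from plasma cells 2 rose, Bhlha15 (3.65) and Derl3 (1.81), while Jchain (-0.26) and Tnfrsf17 (0.15) did not pass. The sums over the 4 were 988.5 to 1101 in PiZ livers and 216.5 to 372.2 in wild-type livers. Markers of cholangiocytes (5), endothelium (6) and lymphocytes (7) had 0 calls, and 1 of 8 stellate cell and fibroblast markers fell. On this scale no marker reads 0. The part of RNA quality and of cell mixture in the results below was not tested, and in whole liver fewer cells of a type cannot be told apart from less RNA per cell.

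The changes were uneven across the pathway, and most members did not pass the test. Of the 51 members 10 rose, 3 fell and 38 did not pass. The 25.5% that changed stand beside 23.6% of all genes measured. Higher calls made up 19.6% of the members and 11.3% of all genes, and lower calls 5.88% of the members and 12.3% of all genes. The median difference was 0.13 over the members and 0.08 over all genes. All 3 PiZ arrays lay above all 3 wild-type arrays for 14 members (27.5%, against 24.9% of all genes), and below them for 5 (9.80%, against 19.9% of all genes). By role, 1 of 12 COPII genes rose and 1 fell, 3 of 12 COPI genes rose and 1 fell, 3 of 12 cargo receptors rose and 1 fell, 2 of 7 SNAREs rose and 1 of 7 tethers rose. The median difference was -0.06 for COPII genes, 0.12 for COPI genes and 0.19 for cargo receptors. It was -0.07 for SNAREs and -0.19 for tethers. The 10 that rose were Tmed3, Arfgap3, Surf4, Preb, Tmed9, Stx5a, Gosr2, Copg1, Copb2 and Golga2, and the 3 that fell were Tmed7, Copg2 and Sar1b. Preb, Arfgap3, Surf4, Tmed3 and Tmed9 passed in each of the 16 alternative analyses, which changed the probe sets used, the scaling, the model or the arrays included. All alternatives use the same 6 arrays or part of them and are not independent. The share of all genes that passed in each of them is not given.

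**Figure D1:**
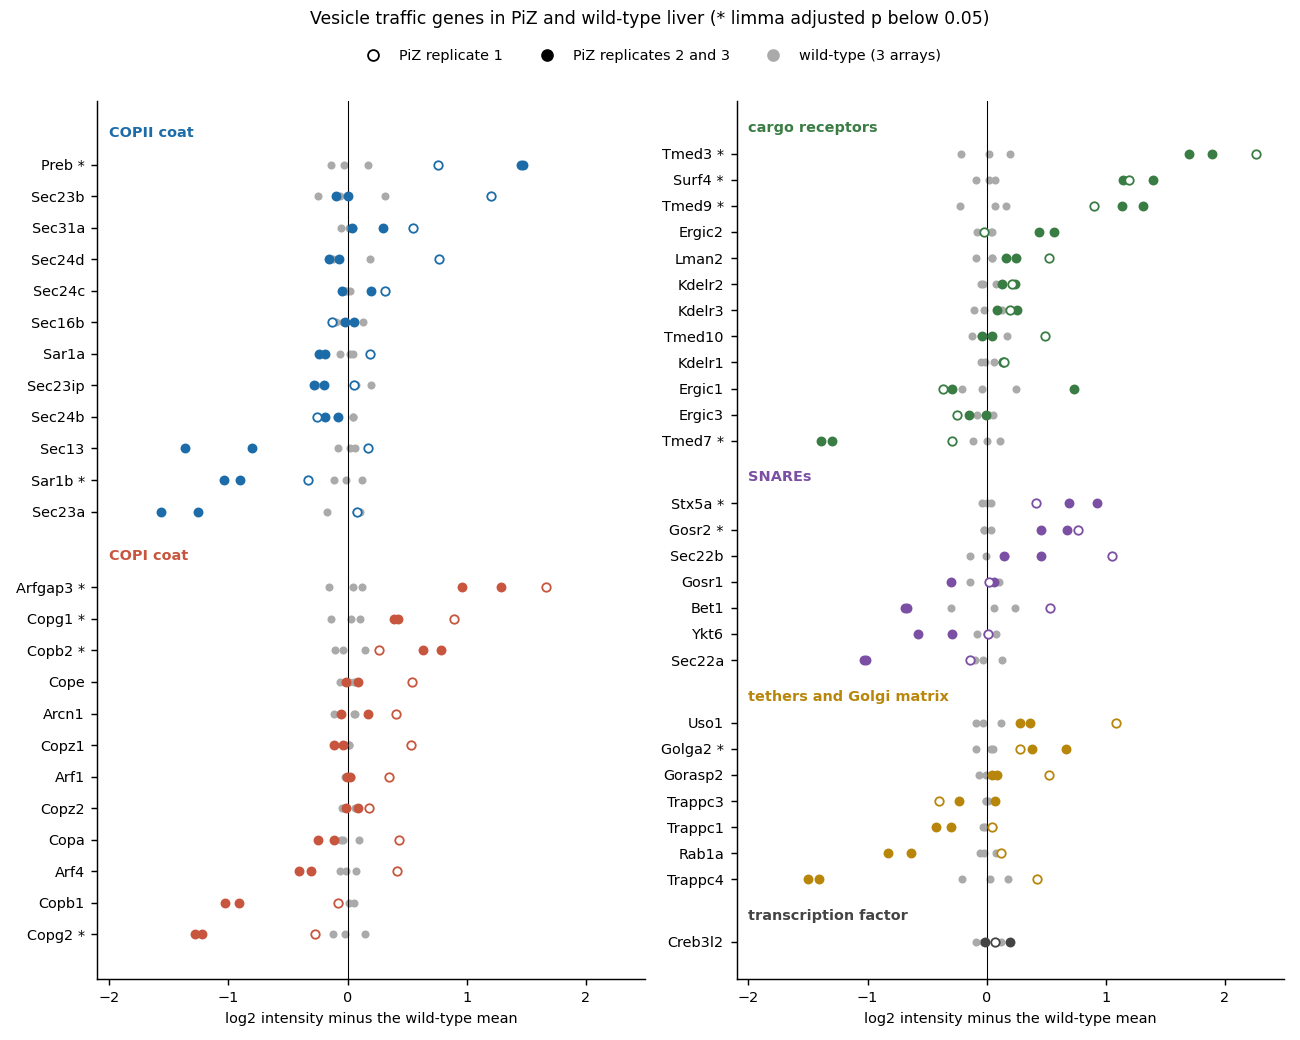
Difference of each array from the wild-type mean for the 51 measured members, grouped by role, in log2 units; open symbols are PiZ replicate 1, filled coloured symbols PiZ replicates 2 and 3, grey symbols the wild-type arrays, and asterisks mark members that passed the test. Tmed3, Surf4, Preb, Tmed9 and Arfgap3 lie to the right of 0 in all 3 arrays, while Trappc4, Sec23a and Sec13 are split between PiZ replicate 1 near or above 0 and the other arrays below it.

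The promoters of these genes were searched for letters known from ER stress biology, because the list has many genes that the factors of that response are known to regulate. RefSeq windows of GRCm38.p6, from 250 bases before to 50 bases after the annotated start (300 bases, with position 0 the first transcribed base), were at hand for 48 of the 54 members, 6 of which had 2 windows. The heptamer GCCACGT, read on both strands and known as a core that XBP1 and the CREB3 family of factors bind, was found in 16 of the 48 members (33.3%), against 2.58% of all 32851 windows and 4.25% of the 9887 measured genes with a window. Windows of 6 members are printed as examples: the 4 members with a match that rose (Tmed3, Tmed9, Stx5a and Copg1), Surf4, which rose and has no match, and Sec23a, which has a match and did not pass the test. Capitals mark GCCACGT or its complement ACGTGGC and, where the overlapping TGACGTG extends them, those letters too.
Tmed3 (chr9:89704994-89705293, minus strand): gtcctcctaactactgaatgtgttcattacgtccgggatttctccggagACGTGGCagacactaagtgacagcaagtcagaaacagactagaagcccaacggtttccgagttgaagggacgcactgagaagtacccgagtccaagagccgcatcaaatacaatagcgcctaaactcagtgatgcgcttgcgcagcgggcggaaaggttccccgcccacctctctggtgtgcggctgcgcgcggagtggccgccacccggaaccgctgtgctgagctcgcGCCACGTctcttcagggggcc
Tmed9 (chr13:55592885-55593184, plus strand): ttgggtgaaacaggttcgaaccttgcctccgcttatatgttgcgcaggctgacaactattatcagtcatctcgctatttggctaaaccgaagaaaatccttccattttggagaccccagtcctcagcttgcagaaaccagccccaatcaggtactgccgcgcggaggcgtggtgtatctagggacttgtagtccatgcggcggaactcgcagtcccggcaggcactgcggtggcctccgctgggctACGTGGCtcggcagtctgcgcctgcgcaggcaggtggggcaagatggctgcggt
Stx5a, the first of 2 windows (chr19:8741174-8741473, plus strand): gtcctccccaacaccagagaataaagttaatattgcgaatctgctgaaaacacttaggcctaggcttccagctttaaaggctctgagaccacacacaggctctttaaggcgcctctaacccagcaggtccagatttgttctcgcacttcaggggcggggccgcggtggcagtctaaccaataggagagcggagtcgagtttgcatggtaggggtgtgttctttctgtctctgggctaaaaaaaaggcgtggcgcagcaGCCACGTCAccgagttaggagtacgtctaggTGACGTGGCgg
Copg1 (chr6:87887690-87887989, plus strand): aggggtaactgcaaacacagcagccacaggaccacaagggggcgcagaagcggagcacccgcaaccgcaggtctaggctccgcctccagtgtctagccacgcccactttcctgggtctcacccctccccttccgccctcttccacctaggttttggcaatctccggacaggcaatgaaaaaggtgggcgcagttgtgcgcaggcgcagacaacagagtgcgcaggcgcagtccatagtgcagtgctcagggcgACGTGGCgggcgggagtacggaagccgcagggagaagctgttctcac
Surf4 (chr2:26933462-26933761, minus strand): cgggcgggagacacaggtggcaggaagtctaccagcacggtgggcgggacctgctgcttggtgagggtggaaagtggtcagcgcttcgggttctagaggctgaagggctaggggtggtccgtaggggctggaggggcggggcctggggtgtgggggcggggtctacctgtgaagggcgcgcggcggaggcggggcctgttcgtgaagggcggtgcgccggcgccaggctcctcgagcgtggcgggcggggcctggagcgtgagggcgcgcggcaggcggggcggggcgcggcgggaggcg
Sec23a (chr12:59011968-59012267, minus strand): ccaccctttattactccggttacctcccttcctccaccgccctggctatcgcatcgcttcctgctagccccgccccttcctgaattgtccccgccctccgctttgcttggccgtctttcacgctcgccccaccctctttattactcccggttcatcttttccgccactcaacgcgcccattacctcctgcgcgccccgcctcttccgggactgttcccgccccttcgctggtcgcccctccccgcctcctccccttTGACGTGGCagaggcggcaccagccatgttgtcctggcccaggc
In Tmed3 the matches lie at positions -201 to -195 and 29 to 35, and in Tmed9 at -4 to 2. Stx5a has them at 8 to 14 and 41 to 47, Copg1 at 3 to 9 and Sec23a at 8 to 14.

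The heptamer was found in members that rose and in members that did not pass. Of the 16 measured members with GCCACGT 4 rose and 0 fell (median difference 0.17), and of the other 30 measured members with a window 6 rose and 2 fell (median 0.11). Members with a match that did not pass were Sar1a, Sec23a, Sec24c, Sec24d, Sec13, Sec31a, Sec16b, Arf1, Copz2, Kdelr3, Sec22a and Uso1, 7 of them of the COPII coat. TGACGTG, which overlaps GCCACGT in the 9 letters TGACGTGGC, was found in 8 of 48 members (16.7%, against 2.01% of all windows and 3.01% of measured genes), of which Copb2 and Stx5a rose. The ER stress element, here CCAAT and CCACG with 9 bases between them, was in 0 of the 48 (0.119% of all windows and 0.182% of measured genes), and ERSE-II, here ATTGG and CCACG with 1 base between them, was in 0 as well (0.0365% and 0.0809%). TGATGNAA, the letters of CHOP and ATF4 composite sites, was found in Kdelr1 alone (3.97% and 3.13%), and TGACGTCA, the full cyclic AMP response element, in Cope and Gosr2 (1.79% and 2.99%). The short parts alone were common: CCAAT in 43.8% of members (37.4% of all windows and 42.3% of measured genes), CCACG in 72.9% (32.8% and 47.6%) and ACGTG in 56.2% (19.6% and 26.9%). The shares of members and of measured genes count a gene once, also where it has several windows. The 9 motifs were chosen after the values were known, and a match is a description of letters.

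**Figure D2:**
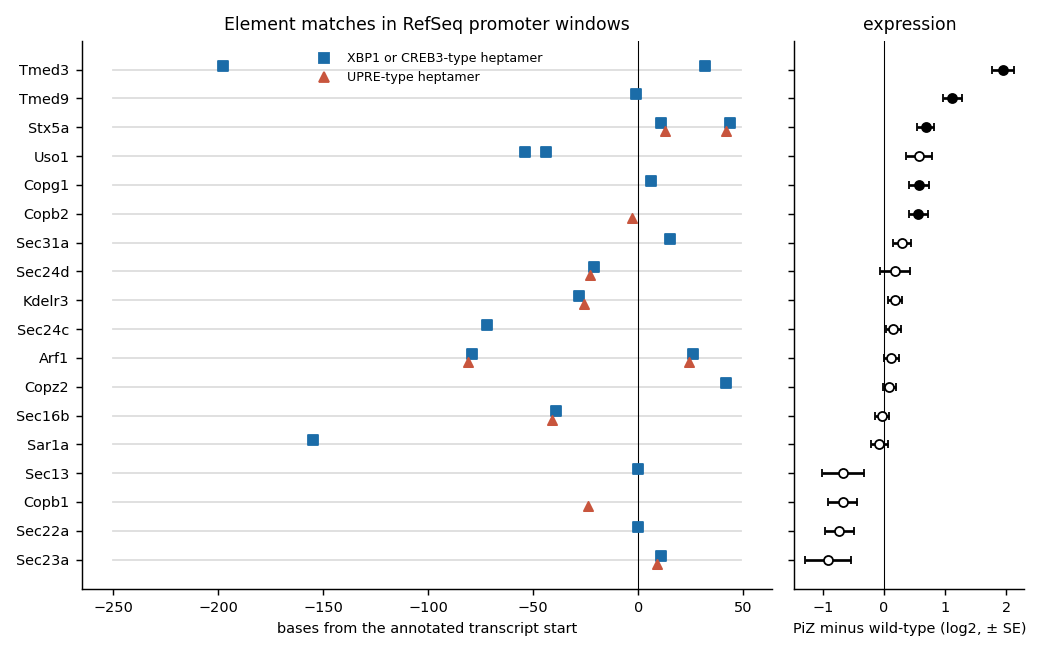
Left, positions of GCCACGT (squares) and TGACGTG (triangles), on either strand, in the windows of members that hold one of them, in bases from the annotated start, with the 2 windows of Arf1 on one line; right, the PiZ minus wild-type difference of each member with its SE, filled where it passed the test. Most matches lie near the start, and those of Tmed3 at -201 and Sar1a at -158 lie farthest upstream.

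Among COPII genes the exchange factor Preb rose and the GTPase Sar1b fell. Preb, which starts coat assembly by loading Sar1 with GTP, read 10.01, 10.72 and 10.71 in PiZ livers, against 9.42, 9.22 and 9.12 in wild-type livers. Every PiZ array stood above every wild-type array, and PiZ replicate 1 was the lowest of the PiZ arrays. The difference was 1.23 (SE 0.20, limma adjusted p = 0.00717), or 2.34-fold, and its other probe set rose by 0.90. It was 1.46 without PiZ replicate 1 and 0.76 in PiZ replicate 1 alone (limma adjusted p = 0.0185). Sar1b, the Sar1 form whose human counterpart is mutated in chylomicron retention disease, read 12.13, 11.43 and 11.56 in PiZ livers, against 12.46, 12.35 and 12.59 in wild-type livers. The groups did not overlap, with PiZ replicate 1 closest to wild-type, and the difference was -0.76 (SE 0.19, adjusted p = 0.0272, 1.69-fold lower). Without PiZ replicate 1 the difference was -0.97 (adjusted p = 0.000416), whereas leaving out PiZ replicate 2 or 3 gave adjusted p = 0.0767 or 0.0974, leaving out a wild-type array gave 0.0683 to 0.107, and PiZ replicate 1 alone differed by -0.34 (adjusted p = 0.129). With the 3′ to 5′ covariate (the mean of the Gapdh and beta-actin differences as a term of the model) its adjusted p was 0.15. Its relative Sar1a differed by -0.08 and did not pass.

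No inner coat gene passed over all arrays, and in several of them PiZ replicate 1 read unlike PiZ replicates 2 and 3. Sec23a, the GTPase-activating subunit, read 10.97, 9.33 and 9.64 in PiZ livers, against 10.97, 10.72 and 11.00 in wild-type livers. PiZ replicate 1 lay within the wild-type range and the other PiZ arrays over 1 log2 unit below it. The difference of -0.91 (SE 0.38) had a 95% interval of -1.80 to -0.03 and an adjusted p = 0.117. Without PiZ replicate 1 it was -1.41 (adjusted p = 0.000217), and in PiZ replicate 1 alone 0.08. Its paralog Sec23b read 10.80, 9.50 and 9.61 in PiZ livers, against 9.92, 9.53 and 9.35 in wild-type livers, a difference of 0.37 (adjusted p = 0.438). Here PiZ replicate 1 was the one that differed, by 1.20 from the wild-type mean. Sec24c, a cargo-binding subunit, read 10.47, 10.10 and 10.34 in PiZ livers, against 10.14, 10.13 and 10.17 in wild-type livers. The groups overlapped, and the difference was 0.15 (SE 0.12, adjusted p = 0.376). Sec24b and Sec24d differed by -0.18 and 0.18.

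The outer cage and the other COPII genes had no call. Sec13, shared with the nuclear pore, read 9.32, 7.78 and 8.34 in PiZ livers, against 9.21, 9.07 and 9.17 in wild-type livers (difference -0.67, SE 0.34, adjusted p = 0.181). PiZ replicate 1 lay above the wild-type arrays and the other PiZ arrays below them. Its cage partner Sec31a differed by 0.30, the exit site scaffold Sec16b by -0.03 and the Sec23-binding Sec23ip by -0.14.

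Within COPI, the Arf GTPase-activating protein Arfgap3 had the largest difference. Arfgap3, which makes Arf1 hydrolyse GTP so that the coat can leave, read 8.45, 8.07 and 7.74 in PiZ livers, against 6.90, 6.62 and 6.82 in wild-type livers. Every PiZ array was well above every wild-type array. The difference was 1.31 (SE 0.19, limma adjusted p = 0.00418), or 2.47-fold. It was 1.13 without PiZ replicate 1 and 1.67 in PiZ replicate 1 alone. Arf1 itself, the GTPase that recruits coatomer, read 12.10, 11.77 and 11.74 in PiZ livers, against 11.73, 11.78 and 11.74 in wild-type livers. Only PiZ replicate 1 stood above the wild-type arrays, and the difference was 0.12 (SE 0.13, adjusted p = 0.5). Arf4 differed by -0.10.

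The coatomer subunits did not move together. The beta-prime subunit Copb2, part of the outer layer, read 9.99, 10.51 and 10.36 in PiZ livers, against 9.69, 9.87 and 9.62 in wild-type livers. The groups did not overlap, and the gap between the lowest PiZ and the highest wild-type array was small. It rose by 0.56 (SE 0.16, limma adjusted p = 0.0384), but its other probe set read -0.44, and the mean of the 2 differed by 0.06 (adjusted p = 0.677). Its call was also lost in PiZ replicate 1 alone (0.27, adjusted p = 0.223), after centring on reference genes (adjusted p = 0.0836), in the covariate fit (adjusted p = 0.277) and without any array but PiZ replicate 1 (adjusted p = 0.0747 to 0.138). The gamma subunits, paralogs of each other, went in opposite directions. Copg1 read 9.61, 9.14 and 9.11 in PiZ livers, against 8.75, 8.83 and 8.58 in wild-type livers, and rose by 0.57 (SE 0.16, adjusted p = 0.0398). Copg2 read 7.56, 6.56 and 6.62 in PiZ livers, against 7.99, 7.71 and 7.82 in wild-type livers, and fell by 0.93 (SE 0.26, adjusted p = 0.0394). In both the groups did not overlap, and PiZ replicate 1 was the highest PiZ array. Both calls ended without PiZ replicate 2 (adjusted p = 0.0605 for Copg1 and 0.115 for Copg2), without PiZ replicate 3 (0.061 and 0.133) and without any 1 wild-type array (0.0877 to 0.143 and 0.0897 to 0.129). In PiZ replicate 1 alone Copg1 rose by 0.89 (adjusted p = 0.00864), while Copg2 differed by -0.28 (adjusted p = 0.218). With the mean of its probe sets Copg1 differed by 0.42 (adjusted p = 0.0682), and with the 3′ to 5′ covariate Copg2 by -0.23 (adjusted p = 0.242).

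The other coatomer subunits had no call. Beta coatomer Copb1 read 9.48, 8.54 and 8.66 in PiZ livers, against 9.63, 9.50 and 9.58 in wild-type livers. All PiZ arrays were below the wild-type arrays, PiZ replicate 1 barely so, and the difference of -0.67 (SE 0.24) did not pass (adjusted p = 0.0743). Epsilon coatomer Cope, which steadies the alpha subunit, read 11.02, 10.46 and 10.57 in PiZ livers, against 10.49, 10.42 and 10.54 in wild-type livers. The groups overlapped, and the difference was 0.20 (SE 0.16, adjusted p = 0.36), against 0.54 in PiZ replicate 1 alone (adjusted p = 0.0226). Alpha coatomer Copa differed by 0.02, delta coatomer Arcn1 by 0.17, and the zeta subunits Copz1 and Copz2 by 0.13 and 0.09.

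**Figure D3:**
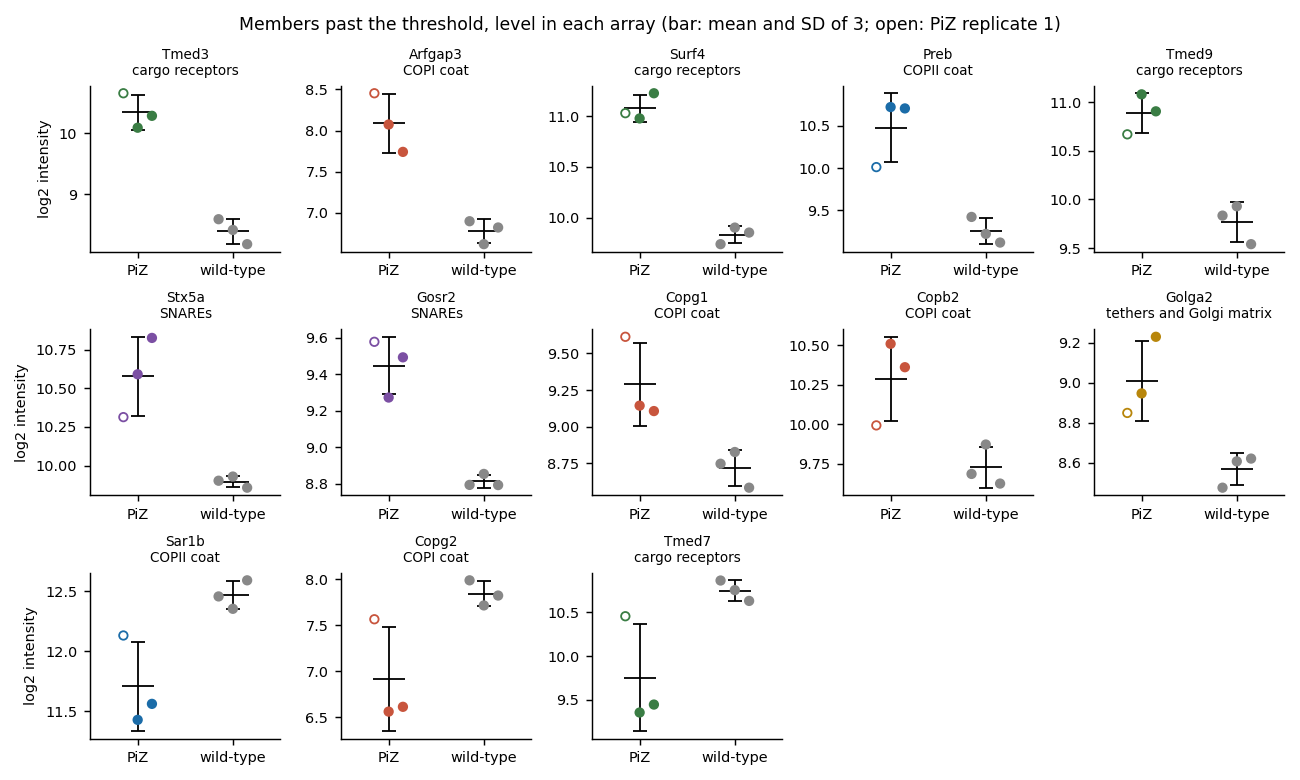
Log2 intensity of the 13 members that passed the test, with one panel per gene, PiZ arrays left and wild-type arrays right, bars for group means with their SD and a vertical scale of its own in each panel; open symbols are PiZ replicate 1. In every panel the 3 PiZ arrays are all above or all below the 3 wild-type arrays. PiZ replicate 1 is the PiZ array closest to wild-type in Sar1b, Copg2 and Tmed7, which fell. The same holds for Preb, Tmed9, Stx5a, Copb2 and Golga2, which rose.

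Cargo receptors held the largest rise of the pathway. Tmed3, a p24 protein of the ER-Golgi shuttle, read 10.66, 10.09 and 10.29 in PiZ livers, against 8.59, 8.42 and 8.19 in wild-type livers. Every PiZ array stood far above every wild-type array, and the spread within each group was small beside the gap. Tmed3 rose by 1.95 (SE 0.18, limma adjusted p = 0.000845), or 3.86-fold, by 1.79 without PiZ replicate 1 and by 2.26 in PiZ replicate 1 alone. Surf4, the receptor that brings several soluble secreted proteins into COPII vesicles, read 11.03, 10.98 and 11.22 in PiZ livers, against 9.74, 9.90 and 9.85 in wild-type livers. Both groups were tight (SD 0.13 in PiZ livers and 0.08 in wild-type livers), and Surf4 rose by 1.24 (SE 0.12, adjusted p = 0.000891), or 2.37-fold. All 5 of its probe sets read higher in PiZ livers, by 0.35 to 1.24, and 4 of them passed. The p24 protein Tmed9 read 10.67, 11.08 and 10.91 in PiZ livers, against 9.83, 9.93 and 9.54 in wild-type livers. Again the groups did not overlap, and Tmed9 rose by 1.12 (SE 0.15, adjusted p = 0.00374), or 2.17-fold. Its other probe set rose by 0.65.

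Of the other p24 proteins Tmed7 fell and Tmed10 did not pass. Tmed7 read 10.46, 9.36 and 9.45 in PiZ livers, against 10.86, 10.75 and 10.63 in wild-type livers. The groups did not overlap, PiZ replicate 1 being close to wild-type and the other PiZ arrays more than 1 log2 unit lower. The fall was 1.00 (SE 0.28, limma adjusted p = 0.038), and the 4 probe sets of Tmed7 ran from -1.61 to 0.32 with 1 of them called. This call ended in PiZ replicate 1 alone (-0.29, adjusted p = 0.171), without PiZ replicate 2 or 3 (adjusted p = 0.11 and 0.129), without any 1 wild-type array (0.099 to 0.122), with the mean of the probe sets (0.0836) and with the 3′ to 5′ covariate (0.277). Tmed10 differed by 0.16. For Tmed2 the 6 probe sets shared with Gm10698 differed by -0.67, -0.50, -0.26, 0.32, 0.41 and 0.60, of which the last 2 rose (adjusted p = 0.0276 and 0.0176 over the 22626 probe sets that are no controls, of which 19.1% changed). They cannot be given to 1 gene.

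The KDEL receptors, which return escaped ER chaperones from the Golgi, did not pass. Kdelr2 read 11.94, 11.96 and 11.85 in PiZ livers, against 11.69, 11.80 and 11.68 in wild-type livers. The groups did not overlap, but the difference of 0.19 (SE 0.10) had a 95% interval of -0.05 to 0.43 and did not pass (limma adjusted p = 0.199). The other, dimmer probe set of Kdelr2 read -0.43 and did not pass either. Kdelr1 read 11.09, 11.08 and 11.08 in PiZ livers, against 10.90, 11.00 and 10.93 in wild-type livers. All PiZ arrays were above the wild-type arrays, by a difference of 0.14 (SE 0.10, adjusted p = 0.312). Kdelr3, whose values of 4.60 to 4.96 lie low on this array, differed by 0.18. The chaperone Hspa5 (BiP), which carries the KDEL signal these receptors bind, rose by 0.90 (SE 0.17, adjusted p = 0.0103).

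The remaining cargo receptors had no call in the probe set that stood for them. The lectin Lman2 (VIP36) differed by 0.31 (SE 0.13, adjusted p = 0.114), with all PiZ arrays above the wild-type arrays. The other probe set of Lman2 read -0.48 and did not pass. Ergic1, Ergic2 and Ergic3, proteins of the compartment between ER and Golgi, differed by 0.03, 0.33 and -0.13. Their other probe sets read differently: both further probe sets of Ergic2 fell, by 0.94 and 0.62, and of the further probe sets of Ergic3 and Ergic1, 1 each fell, by 0.70 and 0.54.

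Of the SNARE genes, those for a pair of partners in ER-to-Golgi fusion rose. Syntaxin 5, Stx5a, the SNARE of the early Golgi, read 10.31, 10.59 and 10.82 in PiZ livers, against 9.90, 9.93 and 9.86 in wild-type livers. Every PiZ array was higher, PiZ replicate 1 by the least, and the rise was 0.68 (SE 0.14, limma adjusted p = 0.0157), or 1.60-fold. Its call ended without any 1 wild-type array (adjusted p = 0.0583 to 0.0712) and with the 3′ to 5′ covariate (0.0952), and its other probe set read 0.22. Gosr2 (membrin), a partner of syntaxin 5, read 9.58, 9.27 and 9.49 in PiZ livers, against 8.80, 8.86 and 8.79 in wild-type livers. The wild-type arrays were close together (SD 0.16 in PiZ livers and 0.035 in wild-type livers) and all PiZ arrays lay above them. Gosr2 rose by 0.63 (SE 0.12, adjusted p = 0.01), its other probe set by 0.90, and the adjusted p was 0.0512 without wild-type replicate 1 and 0.0518 without wild-type replicate 3.

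The other SNARE genes did not pass. Sec22b, the SNARE on vesicles between ER and Golgi, read 10.09, 9.18 and 9.49 in PiZ livers, against 9.19, 9.03 and 8.90 in wild-type livers. One PiZ array fell within the wild-type range, and the difference was 0.55 (SE 0.22, limma adjusted p = 0.109), against 1.05 in PiZ replicate 1 alone (adjusted p = 0.00703). Gosr1 (GS28), a Golgi SNARE, read 9.27, 9.31 and 8.95 in PiZ livers, against 9.11, 9.35 and 9.29 in wild-type livers. The groups overlapped (difference -0.07, SE 0.14, adjusted p = 0.711), while its other probe set rose by 0.72. Sec22a read 7.67, 6.80 and 6.79 in PiZ livers, against 7.94, 7.71 and 7.78 in wild-type livers, a difference of -0.73 (SE 0.24, adjusted p = 0.0614) with no overlap. Bet1 and Ykt6, further partners of syntaxin 5, differed by -0.27 and -0.29.

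Among tethers and Golgi matrix genes only Golga2 passed. Golga2 (GM130), a matrix protein of the cis-Golgi that captures vesicles, read 8.85, 8.95 and 9.23 in PiZ livers, against 8.47, 8.61 and 8.62 in wild-type livers. The groups did not overlap, and the rise was 0.44 (SE 0.13, limma adjusted p = 0.0462), or 1.36-fold. It passed in 7 of 16 alternatives: the adjusted p was 0.0986 after centring on reference genes, 0.0561 with a trended and robust variance model, 0.149 in PiZ replicate 1 alone, 0.257 with the 3′ to 5′ covariate, and 0.0822 to 0.164 without any array but PiZ replicate 1. Its partner Uso1 (p115), which bridges vesicles to Golga2, read 10.60, 9.80 and 9.89 in PiZ livers, against 9.64, 9.49 and 9.43 in wild-type livers. All PiZ arrays were above the wild-type arrays, and the difference of 0.58 (SE 0.21) did not pass (adjusted p = 0.0833), although it passed in 8 of the 16 alternatives, among them PiZ replicate 1 alone (1.08, adjusted p = 0.00471) and the arrays without it (0.33, adjusted p = 0.0361).

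The GTPase and TRAPP genes had no call. Rab1a, which recruits Uso1, read 11.53, 10.59 and 10.78 in PiZ livers, against 11.49, 11.36 and 11.39 in wild-type livers. PiZ replicate 1 was above all wild-type arrays and the other PiZ arrays below them (difference -0.45, SE 0.23, limma adjusted p = 0.188). Trappc4, a core subunit of the TRAPP complex that activates Rab1, read 8.35, 6.42 and 6.52 in PiZ livers, against 8.10, 7.72 and 7.95 in wild-type livers, with the same split and a difference of -0.83 (SE 0.47, adjusted p = 0.224). Trappc1 and Trappc3 differed by -0.23 and -0.19, and the Golgi stacking protein Gorasp2 by 0.22.

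Creb3l2, the transcription factor of the list, is known to activate Sec23a in mouse cartilage cells. It read 7.84, 7.76 and 7.96 in PiZ livers, against 7.68, 7.89 and 7.74 in wild-type livers. The groups overlapped and the difference was 0.09 (SE 0.11, limma adjusted p = 0.601). A second, dimmer probe set of Creb3l2 rose by 0.68 (adjusted p = 0.02 over all single-gene probe sets).

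A split between PiZ replicate 1 and PiZ replicates 2 and 3 was seen across much of the pathway. PiZ replicate 1 was the highest PiZ array for 35 of 51 members (68.6%), against 33.7% of all genes. The share was higher still for the 9 hepatocyte markers (88.9%). In the other cell type marker lists it was lower, from 0% (cholangiocytes) to 50.0% (endothelium). In the lists of neighbouring genes described below the share ran from 16.7% (clathrin and AP-1 coat) to 54.5% (other SNARE genes). The members also had a higher median log2 intensity (9.417) than all genes (6.755). Relative to the wild-type mean, the median member stood at 0.28, -0.01 and -0.004 in the 3 PiZ arrays, where the median of all genes stood at 0.01, 0.10 and 0.09. Members above the wild-type mean numbered 40, 25 and 25 of the 51, beside 6399, 7301 and 7271 of all 12393 genes. The split was seen in COPI genes, where PiZ replicate 1 was the highest PiZ array for 11 of 12. Their medians were 0.41, -0.01 and -0.02. COPII genes showed the split too (9 of 12, with medians of 0.18, -0.17 and -0.08). So did SNAREs (5 of 7, with 0.42, 0.06 and -0.29) and tethers (5 of 7, with 0.28, 0.043 and -0.23). In cargo receptors PiZ replicate 1 was the highest for 5 of 12, with medians of 0.20, 0.24 and 0.13. The end-to-end differences of Gapdh and beta-actin moved with this split, and their part in it was not tested.

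**Figure D4:**
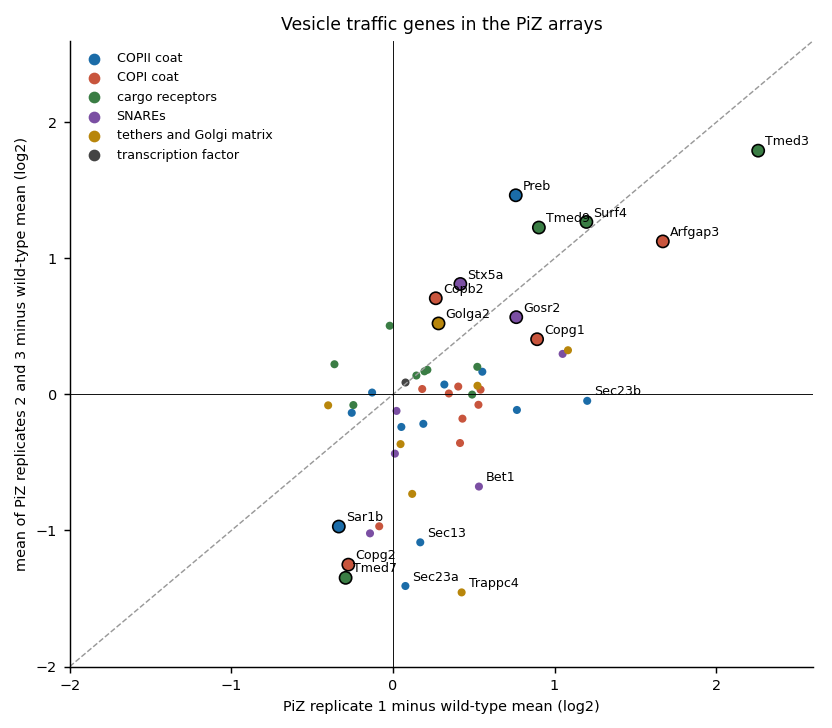
Difference from the wild-type mean in PiZ replicate 1 against the mean of PiZ replicates 2 and 3, in log2 units, for each of the 51 members; large outlined symbols passed the test, colours give the role and the dashed line marks equal differences. Tmed3, Surf4, Preb, Tmed9 and Arfgap3 are far above 0 on both axes, whereas Trappc4, Sec23a, Tmed7 and Copg2 are far below 0 only for PiZ replicates 2 and 3.

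Calls therefore depended on which PiZ arrays were used. In PiZ replicate 1 alone, on the assumption that it varies like the wild-type arrays, 17 members rose and 1 fell, where 8.83% of all genes rose and 9.8% fell. Without PiZ replicate 1, 12 members rose and 13 fell, where 27.4% of all genes rose and 22.4% fell. Both sets shared 9 members that rose, namely Preb, Arfgap3, Copg1, Surf4, Tmed3, Tmed9, Gosr2, Stx5a and Uso1, and 0 that fell. Members that rose in PiZ replicate 1 alone and did not pass over all arrays were Sec23b (1.20), Sec24d (0.77), Sec31a (0.55), Cope (0.54), Copz1 (0.53), Lman2 (0.52), Sec22b (1.05), Gorasp2 (0.52) and Uso1. Members that fell without PiZ replicate 1 and did not pass over all arrays were Trappc4 (-1.46), Sec23a (-1.41), Sec13 (-1.09), Sec22a (-1.02), Copb1 (-0.97), Rab1a (-0.73), Bet1 (-0.68), Ykt6 (-0.44), Trappc1 (-0.37) and Arf4 (-0.36). The 1 member that fell in PiZ replicate 1 alone was Trappc3 (-0.40), and Ergic2 (0.505) rose without PiZ replicate 1 and not over all arrays. Of the 3 members that fell over all arrays (Sar1b, Copg2 and Tmed7), 0 passed in PiZ replicate 1 alone. These names were chosen after their values were seen. Both fits use the same 3 wild-type arrays, so calls that they share are not independent. The share of all genes called in both is not given.

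Probe sets of one gene read different parts of its transcript, and those of 10 members disagreed in sign. Of the 26 members with more than 1 probe set, 16 had every probe set on the same side of 0, and 0 had calls on both sides. Among the 90 member probe sets 17 rose and 7 fell (26.7%, against 19.9% of the 20380 single-gene probe sets). The members that rose include 7 with several probe sets, and for 6 of these all probe sets were higher in PiZ livers, Copb2 being the exception. The probe sets of Preb both rose, by 1.23 and 0.90. Tmed3 had a single probe set.

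**Figure D5:**
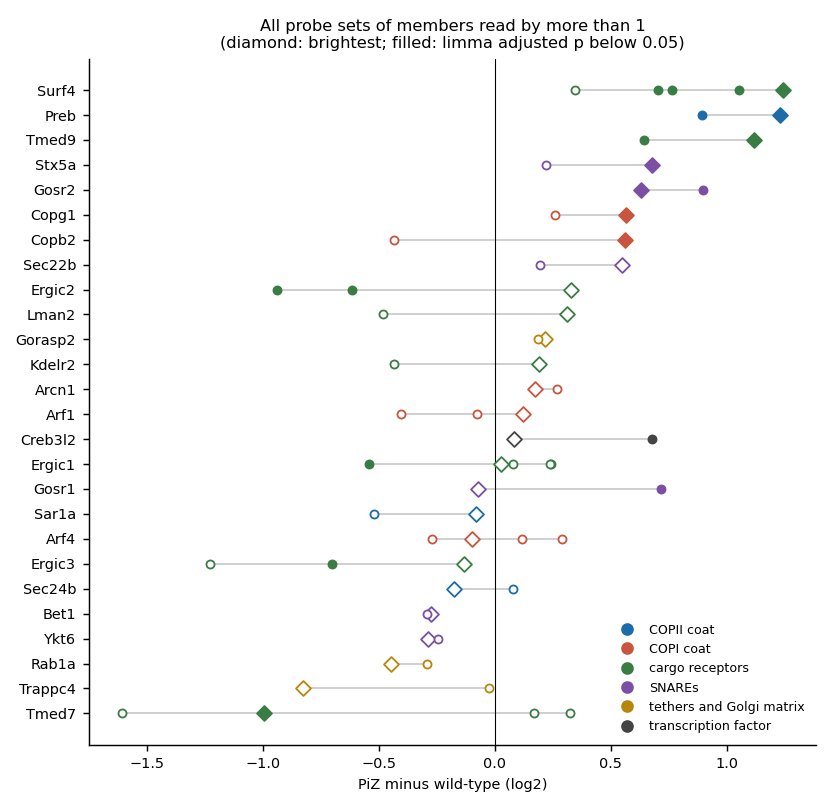
PiZ minus wild-type difference, in log2 units, of each probe set of the 26 members with more than 1 probe set; diamonds mark the probe set that stood for the gene, and filled symbols passed the test over all single-gene probe sets. The 5 probe sets of Surf4 are all above 0, and those of Tmed7 (-1.61 to 0.32) and Ergic2 (-0.94 to 0.33) spread over both sides of 0.

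Further genes of the same pathway were read from lists of their neighbours, and the background for these calls is the same 11.3% higher and 12.3% lower. Of 9 other COPII and ER exit genes 3 rose and 0 fell (median difference 0.30). They were the exit site scaffold Sec16a (0.64, SE 0.13, limma adjusted p = 0.0134), Mia3 (TANGO1), which loads bulky cargo (0.54, adjusted p = 0.014), and Tfg, an organiser of exit sites (0.50, adjusted p = 0.0138). Of 8 other COPI and Arf genes 4 rose and 0 fell (median 0.25). Arfgap1 read 8.42, 9.30 and 9.20 in PiZ livers, against 7.86, 7.80 and 7.83 in wild-type livers, and rose by 1.15 (adjusted p = 0.0116). With Arfgap3 and Arfgap2 (0.48, adjusted p = 0.0338) the 3 Arf GTPase-activating proteins named here were all higher. Gbf1, the exchange factor that loads Arf1 at the Golgi, rose by 0.70 (adjusted p = 0.01), and the plasma membrane GTPase Arf6 by 0.75 (adjusted p = 0.00305), although the mean of the Arf6 probe sets read -0.20. Without 1 wild-type array the adjusted p was 0.0514 to 0.0675 for Sec16a, 0.055 to 0.0732 for Mia3 and 0.0615 to 0.0725 for Tfg, and Sec16a also lost its call without PiZ replicate 3 (0.0512). Arfgap1 and Gbf1 lost theirs without wild-type replicate 3 (0.0516 and 0.0517), and Arfgap2 without any array but PiZ replicate 1 (0.0878 to 0.127). Arfgap2 also lost its call in PiZ replicate 1 alone (0.26, adjusted p = 0.159), in the covariate fit (0.26, adjusted p = 0.208), with the mean of its probe sets (0.25, adjusted p = 0.0986) and after centring on reference genes (adjusted p = 0.0864). In PiZ replicate 1 alone Sec16a differed by 0.42 (adjusted p = 0.0578) and Mia3 by 0.42 (adjusted p = 0.0502), and in the covariate fit their adjusted p was 0.065 and 0.0603.

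Among 21 other receptors and membrane proteins of the shuttle 3 rose and 2 fell (median difference 0.06), of which the 4 with the largest differences are named. Yipf5 rose by 1.06 (limma adjusted p = 0.0029), Yipf2 by 1.01 (adjusted p = 0.0138) and Yif1a by 0.57 (adjusted p = 0.0176), all of the Yip1 family of Golgi membrane proteins. Yipf4 of the same family read 8.23, 6.41 and 6.54 in PiZ livers, against 8.79, 8.41 and 8.56 in wild-type livers, and fell by 1.53 (adjusted p = 0.043), with PiZ replicate 1 close to wild-type and an adjusted p of 0.179 there alone. Lman1 (ERGIC-53), a lectin known in human cells to carry alpha-1 antitrypsin, differed by 0.11 (adjusted p = 0.563). Of 11 other SNARE genes 4 rose and 1 fell (median 0.23). Napa (alpha-SNAP), which helps take SNARE complexes apart, rose by 0.75 (adjusted p = 0.0074), Bet1l by 0.52 (adjusted p = 0.0252) and Use1 by 0.37 (adjusted p = 0.0319). Stx17, known from autophagosome fusion, read 6.93, 6.92 and 7.19 in PiZ livers, against 7.94, 8.18 and 8.16 in wild-type livers, and fell by 1.08 (adjusted p = 0.00219). Its PiZ arrays were alike, and the calls of Stx17 and Napa passed in each of the 16 alternatives. Of 23 other tethers, Rab GTPases and matrix genes 1 rose and 2 fell (median -0.09). Rab1b, the close relative of Rab1a, rose by 0.50 (adjusted p = 0.0211), Trappc13 fell by 0.97 (adjusted p = 0.0211) and the Golgi GTPase Rab30 by 0.85 (adjusted p = 0.0371). Leaving out any array but PiZ replicate 1 ended the calls of Yipf4 (adjusted p = 0.0959 to 0.144), Yif1a (0.0502 to 0.08), Use1 (0.0716 to 0.121) and Trappc13 (0.0596 to 0.0829). Those of Yipf2 ended without PiZ replicate 3 or wild-type replicate 1 or 3 (0.051 to 0.0643), of Bet1l without PiZ replicate 2 or 3 or wild-type replicate 1 or 2 (0.0706 to 0.108), of Rab1b without PiZ replicate 3 or any wild-type array (0.0654 to 0.0944) and of Rab30 without PiZ replicate 2 or 3 or wild-type replicate 1 or 3 (0.0998 to 0.12). With the mean of all probe sets of a gene the calls of Yif1a (0.14, adjusted p = 0.476), Use1 (0.08, adjusted p = 0.573) and Yipf5 (0.42, adjusted p = 0.104) ended, the last in that alternative alone. The 3′ to 5′ covariate ended the calls of Yipf4 (limma adjusted p = 0.196), Rab30 (0.296), Bet1l (0.129) and Yif1a (0.0958). It also ended those of Rab1b (0.0954), Use1 (0.087), Trappc13 (0.064) and Yipf2 (0.0509), while Yipf5, Napa and Stx17 kept theirs. Use1 passed in only 6 of the 16 alternatives. In PiZ replicate 1 alone the differences of Trappc13 (-0.44, adjusted p = 0.0678), Rab30 (-0.58, 0.253), Yipf2 (0.54, 0.051), Yif1a (0.39, 0.0795), Use1 (0.34, 0.0724), Bet1l (0.41, 0.11) and Rab1b (0.39, 0.0616) did not pass.

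Of 8 other CREB3 family and membrane-bound factors, several of them known regulators of secretory genes, 3 rose and 1 fell. Atf6b rose by 0.87 (limma adjusted p = 0.00446), Creb3l1 (OASIS) by 0.75 (adjusted p = 0.0145) and Creb3 (LUMAN) by 0.72 (adjusted p = 0.00552). Creb3l1 had a mean log2 intensity of only 5.01, and its call ended with the 3′ to 5′ covariate (limma adjusted p = 0.0784). Xbp1 fell by 0.40 (adjusted p = 0.048), a call that 8 of 16 alternatives ended, and an array cannot tell its spliced from its unspliced RNA here. The hepatocyte factor Creb3l3 differed by -0.26 (adjusted p = 0.114) and Hnf4a, a factor of mature hepatocytes, by -0.12 (adjusted p = 0.456). Of 12 genes of the clathrin and AP-1 coat, which acts beyond the Golgi, 2 rose and 0 fell (median 0.36). These were the clathrin light chain Cltb (1.13, adjusted p = 0.00382) and the adaptor subunit Ap1g1 (0.42, adjusted p = 0.0288). Without PiZ replicate 3 or any 1 wild-type array the calls of Creb3l1 (adjusted p = 0.0503 to 0.0698), Xbp1 (0.132 to 0.158) and Ap1g1 (0.0851 to 0.116) ended, and that of Creb3 ended with the mean of its probe sets (0.23, adjusted p = 0.109). The same alternative ended the call of Ap1g1 (0.25, adjusted p = 0.117), and in PiZ replicate 1 alone Creb3l1 differed by 0.45 (adjusted p = 0.0518).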

How the data were processed

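Liver RNA of 3 PiZ and 3 wild-type mice was measured on one-colour Affymetrix arrays. The authors deposited log2 intensities, 1 per probe set, produced by RMA in the affy package according to the submitters' processing notes. Tool versions, the chip definition and filters are not given in the sources used. RMA corrects background, equalises the distributions of all arrays and summarises probes, so a shift shared by most genes would be removed. The log2 scale was read from the values (2.3 to 14.984). No detection calls were used, so dim genes may be at background, and the number of arrays limits the precision.

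Of 22690 probe sets 64 were controls, 20380 named 1 gene, 691 several and 1555 none in the platform's annotation, and only the 20380 were used for genes. PiZ was set against wild-type in limma 3.58.1 under R 4.3.3 (functions lmFit and eBayes, two-sided, Benjamini-Hochberg over 12393 genes, threshold 0.05). The fit was tested on simulated data with independent noise of equal spread in all arrays. Those data hold no split like that between PiZ replicate 1 and the other PiZ arrays. Python 3.11.15, pandas 2.3.3 and matplotlib 3.10.9 made tables and figures. Promoter windows came from RefSeq (GRCm38.p6), matched by symbol. The 16 alternatives changed probe sets, a filter on dim genes, scaling, variance model, array weights, block, covariate and arrays. Arrays are named for passing members, for up to 2 others per role with the highest mean intensity, and for a few members chosen after their values were seen (Sec23b, Sec13, Copb1, Sec22a and Trappc4); of each other list up to 4 passing genes of largest difference are named, with Hspa5, Xbp1, Hnf4a, Creb3l3, Mia3, Lman1, Sec16a, Rab1b and Gbf1. The members and all lists were chosen with earlier results of these data known. By the labels each array is a biological replicate, and the p-values reflect the spread between arrays. With 1 array per mouse, differences between animals cannot be told apart from differences in RNA quality.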

Additional observations from a re-analysis of the deposited data

Results flagged for a closer look

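The probe sets shared by Tmed2, a p24 cargo receptor, and Gm10698 were outside the comparison of members because each names 2 genes. A pair of the 6 rose all the same. The first read 12.54, 12.75 and 12.91 in PiZ livers, against 12.10, 12.15 and 12.13 in wild-type livers, a difference of 0.602 (limma adjusted p = 0.0176). The second read 12.66, 12.62 and 12.64 in PiZ livers, against 12.24, 12.26 and 12.21 in wild-type livers, a difference of 0.406 (limma adjusted p = 0.0276). Both groups were tight in each, with no overlap. The other 4 did not pass and ran from -0.67 to 0.32.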

How the results depend on the processing

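For 79 named genes under 16 alternatives, 988 of 1264 results kept direction and side of the threshold, 158 lost the call, 57 gained one and 61 changed sign. Counts of changed genes within 1.5 times of 2921 came from other scalings, probe set choices, dim filter, variance model and PiZ replicate 1 alone. The replicate block was within that range too (3225 genes, 11 members higher and 5 lower). The replicate numbers do not pair animals by the labels, and same-numbered arrays deviated together at r = 0.26, 0.29 and -0.03. Array weights gave 6520 changed genes and 13 members lower, the 3′ to 5′ covariate 1814 genes with 18 members higher and 0 lower, PiZ replicate 1 alone 17 higher and 1 lower, and centring on reference genes 5 lower. Leaving out 1 array at a time gave 1068 to 6175 changed genes, 5 to 12 members higher and 0 to 13 lower; the 13 came without PiZ replicate 1, and every other array left out gave 0.

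Signs turned mainly in genes near 0 or split between PiZ arrays, and the cause was not tested. Array weights gave Copa -0.11, Copz1 -0.016, Ergic1 -0.074, Lman1 -0.024 and Sec24d -0.03. The covariate gave Arf4 0.42, Bet1 0.54, Ergic1 -0.425, Ergic2 -0.044, Rab1a 0.15, Sar1a 0.20, Sec13 0.24, Sec23a 0.15, Sec23ip 0.12, Trappc1 0.068, Trappc4 0.49 and Ykt6 0.057. PiZ replicate 1 alone gave Arf4 0.415, Bet1 0.53, Ergic1 -0.36, Ergic2 -0.02, Gosr1 0.022, Rab1a 0.12, Sar1a 0.19, Sec13 0.17, Sec23a 0.077, Sec23ip 0.052, Trappc1 0.047, Trappc4 0.425 and Ykt6 0.012. The mean of probe sets gave Arf1 -0.12, Arf4 0.01, Arf6 -0.20, Ergic2 -0.41, Gosr1 0.32, Kdelr2 -0.12 and Lman2 -0.087. Cyclic loess gave Arf4 0.026, Gosr1 0.044, Hnf4a 0.014, Sar1a 0.043 and Sec16b 0.088, and a further quantile normalization Arf4 0.01, Gosr1 0.026, Hnf4a 0.002, Sar1a 0.026 and Sec16b 0.076. Over single arrays left out, Sec16b ran from -0.081 to 0.033, Arf4 from -0.36 to 0.055, Copa from -0.18 to 0.16, Copz1 from -0.076 to 0.25, Ergic1 from -0.325 to 0.22, Lman1 from -0.015 to 0.21, Sec23b from -0.047 to 0.60, Sec24d from -0.11 to 0.35, Tmed10 from -0.001 to 0.265 and Gosr1 from -0.14 to 0.041.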
